A study of Mus musculus with 8 samples.

Results

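Ribosome biogenesis genes encode the factors that transcribe, modify, cut and assemble ribosomal RNA into ribosomal subunits. A set of 38 of them is described here in the hearts of mice 24 hours after coronary ligation. The set is a fixed list of gene symbols, chosen with earlier results of these data known. Each gene was represented by its brightest retained probe among those named by a RefSeq transcript of that gene, and all 38 were measured, out of 15156 genes with such a probe. The 49 array probes of these genes were all retained, and the probe used for each gene was well above background on all 8 arrays and saturated on none.

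Adult male C57BL\6 mice underwent ligation of the anterior interventricular artery, which was left permanently occluded (MI group, n = 4), or the same surgery with no ligation (sham group, n = 4). RNA of the ventricles was taken 24 hours after surgery and hybridised in 1 colour (Cy3) on mouse SurePrint G3 arrays, with 1 array for each mouse. The labels do not separate infarcted from surviving muscle, so each value is an average over the cells of the sample, in which fewer cells of a type and less RNA per cell cannot be told apart.

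Ribosomes are made mainly in the nucleolus. RNA polymerase I transcribes a long precursor, small nucleolar ribonucleoproteins (snoRNPs) guide the modification of its bases and riboses, and assembly factors join it with ribosomal proteins to form a small and a large subunit that mature separately and are exported to the cytoplasm. Growth signals raise this output, and the transcription factor Myc is known to act on many of the genes. In the heart, ribosome production is known to accompany the growth of cardiomyocytes, and it is also high in activated immune cells and in proliferating cells.

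Values are log2 signals on the study's own scale, set by spike-in RNA that was added to equal amounts of total RNA. A gene was called higher or lower at an adjusted p under 0.05 (limma, Benjamini-Hochberg adjustment over all 34038 retained probes). On this scale the median over all genes stood at 8.74 in MI replicate 2 and in sham replicate 2, and between 8.98 and 9.35 in the other 6 mice. A second scaling divides the signals of an array by their 75th percentile and so removes such differences, and its values are given beside those of the spike-in scale. The median log2 fold change of all genes was 0.07 on the spike-in scale and -0.06 on the percentile scale.

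Sets of cell type markers were read in the same samples. All 10 cardiomyocyte markers were measured, and in limma 0 were called higher and 0 lower (0 higher and 1 lower at an unadjusted p under 0.05, and 0 by significance analysis of microarrays). On the percentile scale described above, 1 of them, Pln, was called lower (-0.68, adjusted p = 0.00643 in limma). The summed level of the atrial markers Myl7 and Sln was 810 in sham replicate 4 and between 23178 and 80938 in the other 7 mice, although the label is ventricles for all mice. Of 10 neutrophil markers listed, 9 were measured and 6 rose, while Csf3r (0.08), Camp (0.64) and Lcn2 (0.64) were not called. The summed level of all 9 lay between 251203 and 369693 in MI mice against 76469 to 121133 in sham mice. Of the 8 measured monocyte and macrophage markers, Cd14 (2.25) and Ccr2 (1.15) rose, and of 4 smooth muscle markers Acta2 (1.46) rose, by these amounts on the log2 scale. The other 6 of the first list were not called, and 2 of them were negative, Csf1r (-0.16) and Adgre1 (-0.24). In the second list Cnn1 (0.54), Tagln (-0.07) and Myh11 (-0.27) were not called. Summed levels cover all measured markers of a list, called or not. The summed level of the first list was 39673 to 59989 in MI and 33415 to 64075 in sham mice, and of the second 24511 to 44292 and 16160 to 21574. Fibroblast markers had a median log2 fold change of -0.41, with 6 of 8 negative and 2 positive, and 0 were called in either direction on either scale. At an unadjusted p under 0.05 in limma, Col3a1 and Lum were lower and Postn was higher. The summed level of the fibroblast markers was 46966 to 116106 in MI and 89203 to 143562 in sham mice.

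A majority of the 38 listed genes rose in MI mice and none was called lower. Of the 38 genes, 37 had a positive log2 fold change, 20 were called higher and 0 lower in limma (29 and 0 at an unadjusted p under 0.05, and 27 and 0 by significance analysis of microarrays). Among all genes, 7.74% were called higher and 1.77% lower at the adjusted p in limma, and 58.7% had a positive log2 fold change. By significance analysis of microarrays, 3875 of 33865 probes passed a q under 0.05 in either direction. The share of all genes at an unadjusted p under 0.05 is not given here. The median log2 fold change of the 38 genes was 0.70, against 0.06 in the 3455 genes that lay within the signal quartiles of the list, of which 7.09% were called higher. Of the called genes, 8 were more than 2-fold higher, a mark passed by 4.06% of all genes. In 24 of the 38, every MI mouse stood above every sham mouse, as was the case for 9.45% of all genes.

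On the percentile scale, 28 of the 38 genes were called higher and 0 lower, where 10.1% of all genes were called higher and 12.5% lower. The median log2 fold change was 0.58, with 37 positive values against 43.6% of all genes, and 4 genes passed 2-fold, against 3.77% of all genes. The MI and sham mice did not overlap in 30 genes (12.7% of all genes). All 20 genes called on the spike-in scale were among these 28, and the 8 added ones were Bop1, Dkc1, Fbl, Ncl, Nhp2, Noc2l, Polr1b and Utp15. The number of calls thus depends on the scaling, and the direction did so for none of the 38.

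**Figure D1:**
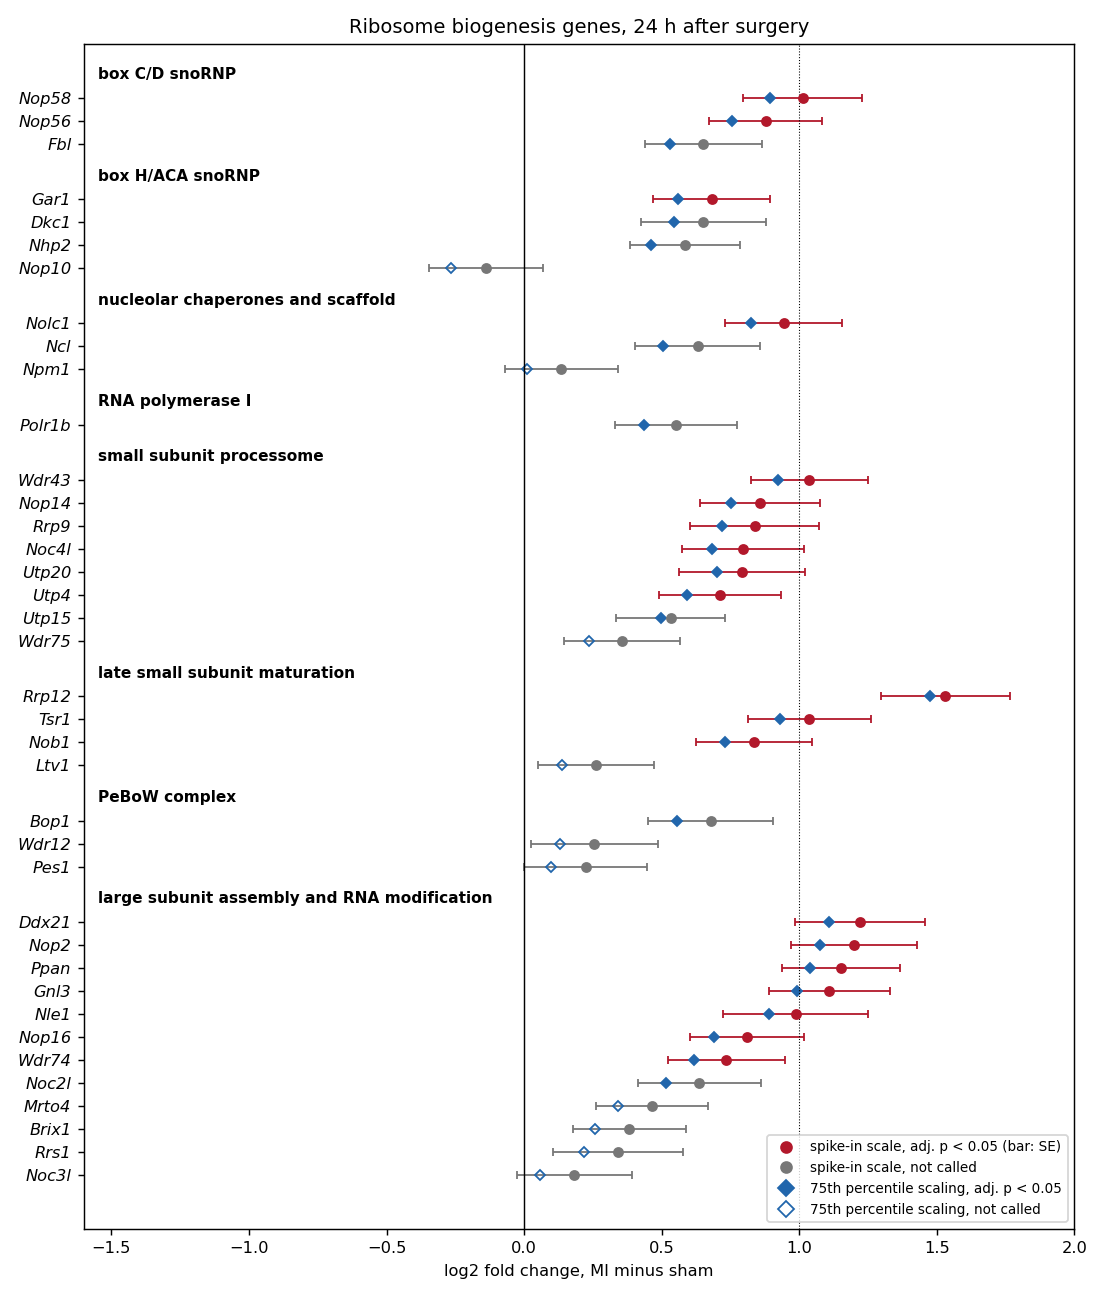
Log2 fold change (MI minus sham, horizontal axis) of the 38 genes, grouped by role. Circles are values on the spike-in scale with the SE as a bar, red where called, and diamonds are values on the 75th percentile scale, filled where called. The dotted line marks 2-fold. The values run from -0.14 for Nop10 to 1.53 for Rrp12.

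Most of the small subunit genes among the 38 rose. Of the 8 genes of the small subunit processome, the large particle that forms on the young precursor, 6 rose (median log2 fold change 0.79), and of the 4 genes of late small subunit maturation 3 rose (median 0.94). With the vsn model refitted on the spike-in spots, 2 of the 8 and 3 of the 4 were called. Rrp12, a factor in the maturation and export of small subunits, changed most of the 38 genes on both the spike-in and the percentile scale. Its log2 values were 9.11, 8.58, 9.29 and 8.96 in the MI mice and 8.002, 6.93, 7.34 and 7.55 in the sham mice. The lowest MI mouse, replicate 2, was above the highest sham mouse, replicate 1. The log2 fold change was 1.53 ± 0.23 (SE), or 2.89-fold, with an adjusted p of 5.62e-05 in limma. The vsn refit, whose additive constants are larger, gave 0.91 for Rrp12 (adjusted p = 0.0106 in limma), below its value of 1.15 for Nop2.

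Tsr1, a GTPase-like factor on late small subunits, rose by 1.04 on the log2 scale, with MI values between 9.74 and 10.54 and sham values between 8.66 and 9.25. Nob1, the endonuclease that makes the last cut of the small subunit RNA, rose by 0.83. Ltv1, which leaves the particle shortly before that cut, was not called (0.26, 95% interval from -0.17 to 0.69).

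In the processome, the called genes of the list were Wdr43, Nop14, Rrp9, Noc4l, Utp20 and Utp4. Wdr43 and Utp4 belong to the subcomplex that binds the precursor first. The MI mice had Wdr43 values between 10.82 and 11.20, all above the sham values of 9.53 to 10.24, and the log2 fold change was 1.04 ± 0.21 (SE). Utp15 and Wdr75, of the same subcomplex, were not called, with 0.53 (95% interval 0.12 to 0.94) and 0.36 (-0.08 to 0.79). Utp15 had a mean of 6.16 ± 0.14 (SD, n = 4) in MI and 5.63 ± 0.09 in sham mice, with no overlap between the groups. Nop14 and its partner Noc4l rose by 0.86 and 0.80. Rrp9, a protein of the snoRNP that guides the early cuts, rose by 0.84, and 1 of its sham mice (replicate 1, 10.37) stood above its lowest MI mouse (replicate 2, 10.27).

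**Figure D2:**
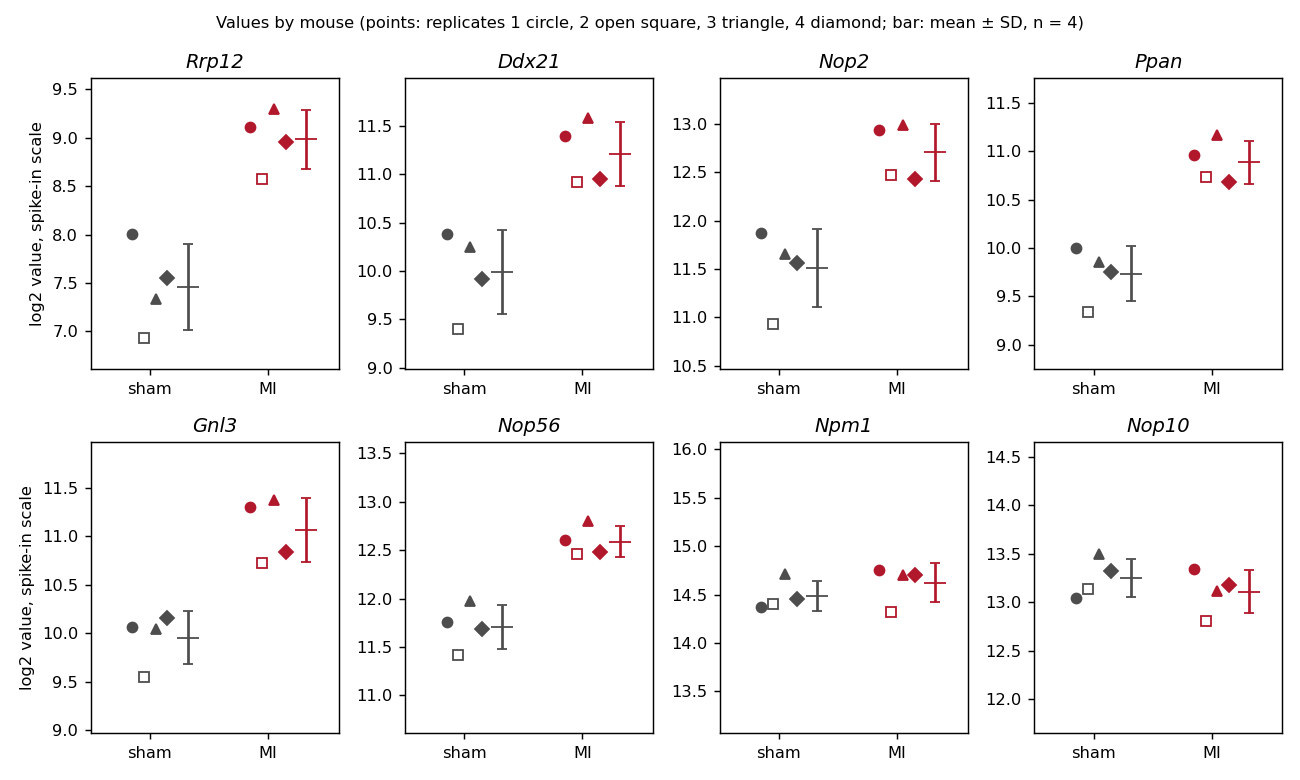
Log2 values on the spike-in scale (vertical axis, 3 log2 units in every panel) of 8 ribosome biogenesis genes in each sham and MI mouse, with the mean ± SD (n = 4) beside the points. Replicate 2, the open square, is the lowest MI mouse in 6 and the lowest sham mouse in 6 of the 8 panels. In Npm1 and Nop10 the groups overlap, and in the other 6 genes they do not.

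Among the 12 genes of large subunit assembly and RNA modification, 7 rose and 5 were not called (median log2 fold change 0.77). Ddx21, an RNA helicase of the nucleolus, had values of 11.39, 10.92, 11.58 and 10.95 in MI mice and 10.38, 9.40, 10.25 and 9.92 in sham mice. The groups did not overlap, and the log2 fold change was 1.22 ± 0.24 (SE), with an adjusted p of 0.000938 in limma. A second Ddx21 probe gave 0.64 and was not called (adjusted p = 0.0846 in limma), so the size of the change differs between probes.

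Nop2, a methyltransferase of cytosines in the large subunit RNA, had values of 12.93, 12.47, 12.99 and 12.43 in MI mice and 11.87, 10.93, 11.66 and 11.57 in sham mice. All MI mice stood above all sham mice. Its log2 fold change was 1.20 ± 0.23 (SE), with an adjusted p of 0.000872 in limma.

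Ppan, a factor of early large subunit assembly, had values of 10.96, 10.73, 11.17 and 10.68 in MI mice and 9.997, 9.34, 9.85 and 9.75 in sham mice. All MI mice stood above all sham mice. The log2 fold change was 1.15 ± 0.21 (SE), with an adjusted p of 0.000606 in limma. Gnl3 (nucleostemin), a nucleolar GTPase known from stem cells and dividing cells, had values of 11.31, 10.72, 11.38 and 10.84 in MI mice and 10.06, 9.55, 10.05 and 10.16 in sham mice. Its groups did not overlap, and the log2 fold change was 1.11 ± 0.22 (SE), with an adjusted p of 0.00135 in limma. Of 5 cycling cell markers, 0 were called in limma, 0 had an unadjusted p under 0.05 and 0 were called by significance analysis of microarrays. Their log2 fold changes were positive in 2 and negative in 3. Signals were low for Top2a, Ccnb1 and Cdk1, with sham means of 4.44, 4.94 and 5.14 on the log2 scale. Top2a was well above background on 4 arrays and Ccnb1 on 7. For Birc5 (0.38), every MI mouse stood above every sham mouse on the spike-in scale, and the groups overlapped on the percentile scale. Cell division was not tested.

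The other called genes of this role were Nle1 (0.99), which works with the AAA ATPase Mdn1 on the large subunit, Nop16 (0.81) and Wdr74 (0.74). Nle1 varied most within its groups of these 3, with an SD of 0.46 in MI mice and 0.56 in sham mice, and 3 of the mice, left out in turn, ended its call. Noc2l, Mrto4, Brix1, Rrs1 and Noc3l were not called, with log2 fold changes of 0.64, 0.47, 0.38, 0.34 and 0.18. Noc3l was nearest to no difference, with a 95% interval from -0.25 to 0.61. The PeBoW complex, in which Pes1, Bop1 and Wdr12 act together in the making of the large subunit RNA, had 0 called genes in limma (1 at an unadjusted p under 0.05, and 1 by significance analysis of microarrays). Its values were 0.22 for Pes1 (95% interval -0.24 to 0.69), 0.68 for Bop1 (0.21 to 1.14) and 0.25 for Wdr12 (-0.22 to 0.73). Pes1 values were 9.93, 9.25, 10.08 and 10.08 in MI mice and 9.93, 9.43, 9.65 and 9.43 in sham mice, and these overlap.

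On the spike-in scale, both kinds of snoRNP held genes that were called and genes that did not pass the test. On the percentile scale, 3 of 3 box C/D and 3 of 4 box H/ACA genes were called higher, against 10.1% of all genes. Nop56 and Nop58, the paired scaffold proteins of box C/D snoRNPs, rose by 0.88 and 1.01 on the log2 scale. Nop56 values were 12.60, 12.46, 12.80 and 12.48 in MI mice and 11.75, 11.42, 11.98 and 11.69 in sham mice. Nop58 values were 11.91, 11.72, 12.18 and 11.77 in MI mice and 10.81, 10.47, 11.16 and 11.09 in sham mice. Neither gene had an overlap between the groups. Fibrillarin (Fbl), the ribose methyltransferase of the same particle, had a log2 fold change of 0.65 (95% interval 0.22 to 1.09) and an adjusted p of 0.0584 in limma, with no overlap between the groups.

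Of the 4 box H/ACA proteins, which guide the conversion of uridine to pseudouridine, Gar1 alone was called, at 0.68 (adjusted p = 0.0477 in limma), and its call was lost when any of 5 of the mice was left out. It measured 12.54, 12.20, 12.68 and 12.31 in MI mice and 11.93, 11.35, 11.94 and 11.77 in sham mice, which do not overlap. The pseudouridine synthase Dkc1 stood at 0.65 and Nhp2 at 0.58, and both were called on the percentile scale. Nop10 was the only one of the 38 genes with a negative value. It measured 13.35, 12.81, 13.11 and 13.18 in MI mice and 13.05, 13.14, 13.49 and 13.32 in sham mice, which overlap, and its log2 fold change was -0.14 (95% interval -0.57 to 0.29).

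The nucleolar chaperones also held called and uncalled genes on the spike-in scale. Nolc1, a scaffold that binds snoRNPs, measured 11.45, 11.35, 11.75 and 11.44 in MI mice and 10.57, 10.19, 10.94 and 10.51 in sham mice, with no overlap, and rose by 0.94. Nucleolin (Ncl) had a log2 fold change of 0.63 (95% interval 0.16 to 1.10) and was not called on the spike-in scale but was on the percentile scale. Nucleophosmin (Npm1) measured 14.76, 14.32, 14.70 and 14.70 in MI mice and 14.37, 14.40, 14.72 and 14.45 in sham mice. Its log2 fold change was 0.14 (95% interval -0.28 to 0.56), and its other 3 probes gave between 0.17 and 0.23. Polr1b, a core subunit of RNA polymerase I, had a log2 fold change of 0.55 (95% interval 0.09 to 1.01) on the spike-in scale and was called on the percentile scale (0.44).

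Several probes were retained for 9 of the 38 genes, and all 11 second probes had the sign of the brightest one. Their sizes were close for Tsr1 (1.04 and 1.03) and for Nop56 (0.88 and 1.10). They differed for Ddx21, for Wdr43 (1.04 and 0.55) and for Nolc1 (0.94 and 0.50), whose second probes were not called on the spike-in scale. They also differed for Pes1 (0.22 and 0.56) and for Ncl (0.63 and 0.28), of which no probe was called on that scale.

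Within each group, the same mouse was often the lowest. MI replicate 2 was the lowest MI mouse in 34 of the 38 genes and sham replicate 2 the lowest sham mouse in 34, and these are the arrays with the low median over all genes. When each array was centred on its median over all genes, the numbers were 4 and 13, MI replicate 4 was the lowest MI mouse in 22 genes, and the median SD within the MI group was 0.15 in place of 0.27, and within the sham group 0.16 in place of 0.28. The median difference of the 38 genes from the sham mean, after this centring, was 0.56, 0.65, 0.69 and 0.49 in MI replicates 1 to 4. In sham replicates 1 to 4 it was -0.01, -0.09, -0.06 and 0.11. Each MI mouse stood above all sham mice in 31 to 33 of the 38 centred genes. The same count over all genes is not given here. The 2 rows of the slide, each with 2 MI and 2 sham mice, gave median log2 fold changes of 0.71 and 0.73 on the spike-in scale.

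**Figure D3:**
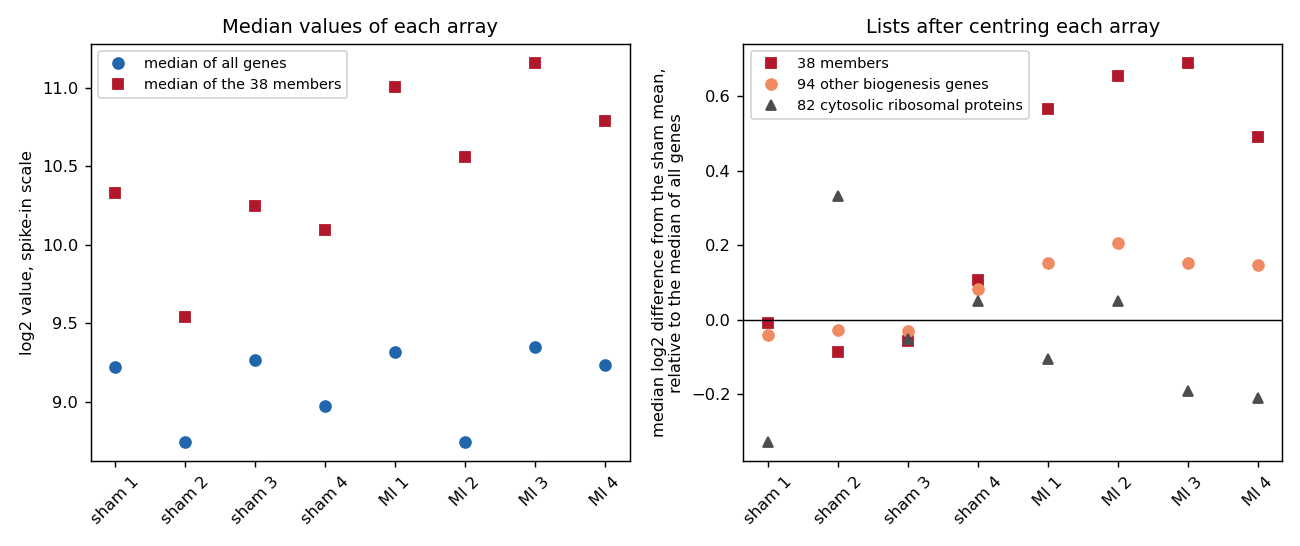
Left, median log2 value on the spike-in scale over all genes and over the 38 genes on each of the 8 arrays. Right, the median log2 difference from the sham mean in each mouse, after each array was centred on its median over all genes, for the 38 genes, 94 other ribosome biogenesis genes and 82 cytosolic ribosomal proteins. The 38 genes stand at 0.49 to 0.69 in the 4 MI mice and at or below 0.11 in the sham mice.

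The calls of 10 genes held when any 1 of the 8 mice was left out: Ddx21, Gnl3, Nolc1, Nop2, Nop56, Nop58, Ppan, Rrp12, Tsr1 and Wdr43. The number of called genes was 10 without sham replicate 2, 12 without MI replicate 3 and 13 without MI replicate 1, against 20 with all mice, and without both replicate 2 mice it was again 20, 17 of them shared. Without sham replicate 4, the mouse with the low atrial markers, 16 were called. The share of all genes called with mice left out is not given here, so these counts cannot be set against it. On the spike-in scale, 6 of 9 measured neutrophil markers were called higher (above). For monocytes and macrophages it was 2 of 8, and for smooth muscle 1 of 4. Any part of these cell types in the values of the 38 genes was not tested.

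Other genes of the pathway, from a list of 99 of which 94 were measured, were read the same way: 14 rose and 0 fell in limma (30 and 0 at an unadjusted p under 0.05, and 19 and 0 by significance analysis of microarrays), with a median log2 fold change of 0.29. By step, the calls were 9 of 31 genes of large subunit assembly, 4 of 34 of the small subunit processome, 1 of 11 of export and cytoplasmic maturation, 0 of 8 of snoRNP assembly and 0 of 10 of RNA polymerase I transcription. At an adjusted p under 0.05 in limma, 7.74% of all genes were called higher, against 14.9% of these 94. The shares were 29.0% of the large subunit genes, 11.8% of the processome genes and 9.09% of the export genes. Eif6, which keeps new large subunits from joining small ones too early, rose by 1.01 ± 0.21 (SE) on the log2 scale (adjusted p = 0.00229 in limma), from 12.37, 11.74, 12.28 and 12.27 in sham mice to 13.29, 12.90, 13.34 and 13.17 in MI mice. Nifk, a nucleolar partner of the Ki-67 protein, rose by 0.96 ± 0.21 (SE; adjusted p = 0.00367 in limma), with MI values of 12.22, 11.91, 12.48 and 12.08 and sham values of 11.40, 10.89, 11.39 and 11.17. Bysl, a late small subunit factor, rose by 0.93 ± 0.22 (SE; adjusted p = 0.00665 in limma), with MI values of 12.26, 11.89, 12.40 and 12.02 and sham values of 11.45, 10.72, 11.45 and 11.23. None of these 3 genes had overlapping groups.

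Of the 10 genes of RNA polymerase I transcription, 2 were higher at an unadjusted p under 0.05 and 1 by significance analysis of microarrays, and of the 8 of snoRNP assembly 0 by either. Polr1a, the largest subunit, had a log2 fold change of -0.04 (95% interval -0.50 to 0.42), the initiation factor Rrn3 0.32 (-0.15 to 0.79) and the upstream binding factor Ubtf 0.04 (-0.43 to 0.51), and none was called (adjusted p from 0.473 to 0.953 in limma). The sign for Ubtf turned on the percentile scale (-0.09). With that scaling, 20 of the 94 genes were called higher (21.3%) and 2 lower (2.13%), the latter being Rpf1 (-0.39) and Znhit3 (-0.52). Among all genes, 10.1% were called higher and 12.5% lower with that scaling.

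Of 82 cytosolic ribosomal proteins 0 passed limma's test in either direction on the spike-in scale (3 higher and 1 lower at an unadjusted p under 0.05, and 2 and 0 by significance analysis of microarrays), with a median log2 fold change of -0.01, and 1 (Rpl7l1, which is a relative of a ribosomal protein) was called higher on the percentile scale. Of 77 mitochondrial ribosomal proteins 0 passed in limma on the spike-in scale (0 higher and 3 lower at an unadjusted p under 0.05, and 0 and 1 by significance analysis of microarrays; median -0.17), and 20 were called lower on the percentile scale, where 12.5% of all genes were. The difference between these lists and the 38 genes is a description and was not tested.

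**Figure D4:**
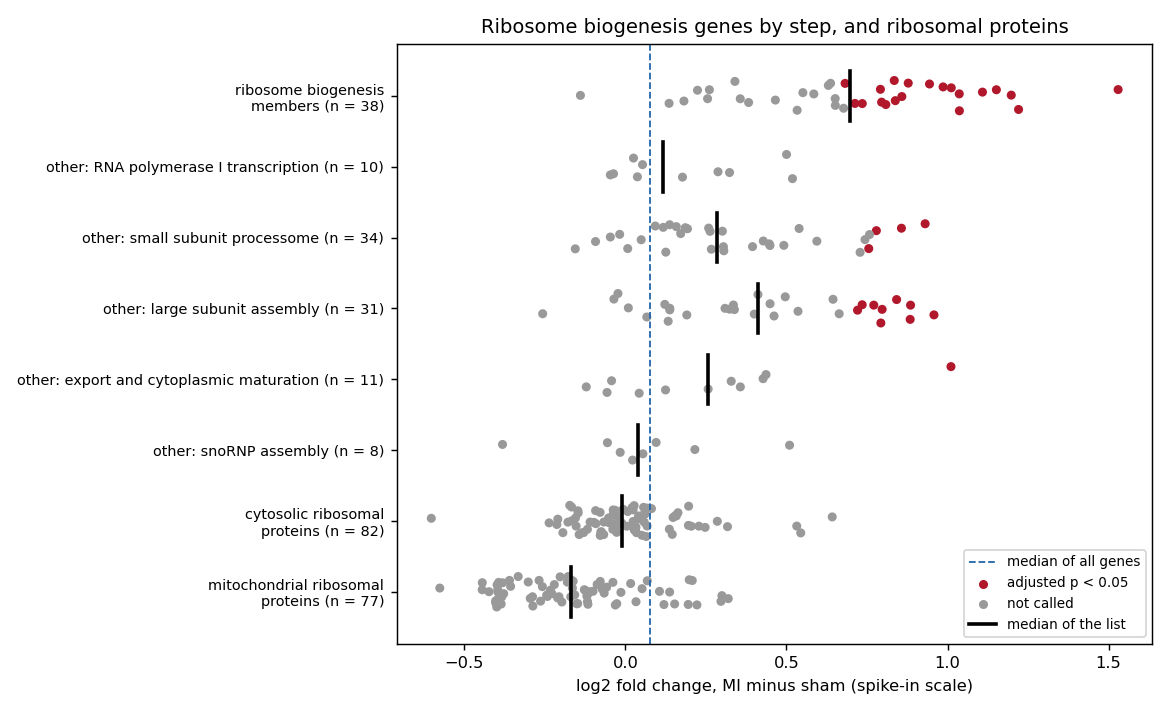
Log2 fold change (MI minus sham, spike-in scale, horizontal axis) of each gene, by list, with called genes in red, the median of each list as a black bar and the median of all genes (0.07) as a dashed line. The 38 genes have a median of 0.70, the steps of the other list medians from 0.04 to 0.41, and the cytosolic and mitochondrial ribosomal proteins -0.01 and -0.17.

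Myc was higher in MI mice, with values of 9.02, 9.83, 9.68 and 9.86 against 8.003, 7.75, 8.90 and 8.79 in sham mice. Every MI mouse stood above every sham mouse. The log2 fold change was 1.23 ± 0.26 (SE), with an adjusted p of 0.00216 in limma, and 1.15 on the percentile scale (adjusted p = 0.0423 in limma), where the groups overlapped. It was not called with the vsn model refitted (adjusted p = 0.0559 in limma) or with no filter on detection (adjusted p = 0.0633 in limma).

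Myc binds the E-box, whose letters are CACGTG on both strands, since the site is a palindrome. The windows from 250 bases before to 50 after the start of each gene (RefSeq, GRCm38.p6) were read for this motif. Of the 33 genes with a window, 8 held it (24.2%), as did 12 of 78 other ribosome biogenesis genes (15.4%). By gene, it was in 10.9% of genes with a retained probe and 8.09% of all genes with a window. Counted by window, it was in 7.15% of all windows. It was in 6 of 19 called genes and in 2 of 14 that were not called. The sites are shown because they are the letters that the motif count rests on, each as 30 bases on the strand of the gene with the E-box in capitals:
Nop2 (chr6:125131811-125131840, + strand): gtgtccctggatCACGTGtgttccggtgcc
Wdr43 (chr17:71616220-71616249, + strand): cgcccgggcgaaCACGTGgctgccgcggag
Tsr1 (chr11:74898092-74898121, + strand): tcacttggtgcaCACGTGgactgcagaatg
Nle1 (chr11:82908355-82908384, - strand): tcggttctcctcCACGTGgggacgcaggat
Utp20 (chr10:88826765-88826794, - strand): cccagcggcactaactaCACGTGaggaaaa
Utp4 (chr8:106893643-106893672, + strand): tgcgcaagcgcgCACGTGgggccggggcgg
Pes1 (chr11:3963965-3963994, + strand): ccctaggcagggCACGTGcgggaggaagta
Ltv1 (chr10:13193092-13193121, - strand): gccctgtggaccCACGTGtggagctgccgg

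The E-box of Nop2 began 60 bases before the annotated start, and the other 7 began between 2 and 37 bases after it. Utp20, Utp4, Nle1, Tsr1, Wdr43 and Nop2 rose, and Pes1 and Ltv1 were not called. Npm1, Rrp12, Rrs1, Bop1 and Fbl had no window in the table. A match of letters is a description, and binding was not measured.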

How the data were processed

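Total RNA of the ventricles of 4 MI and 4 sham mice was measured on 8 arrays of 1 slide, scanned once. Intensities were deposited as the processed signal that Feature Extraction 11.0.1.1 writes, per the file headers, with the local background subtracted and no normalization between arrays. The deposited log2 values were made by the authors from spots well above background, normalized with spike-in probes in limma and vsn. On each array, 58.6% to 66.4% of spots passed the scanner software's test against background.

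For every array, a factor and an additive constant were recovered from the deposited log2 values and applied to the processed signals. Outlier spots were left out, spots of a probe averaged, and probes kept where at least 4 of 8 arrays had them well above background, which gave 34038. Array-to-array differences common to all probes remain on this scale and widen the spread within groups. MI and sham mice were compared in limma 3.58.1 (R 4.3.3) without covariates. Groups and replicate numbers come from the labels. The number of arrays limits the precision, and exact permutation of 4 against 4 mice cannot give a p below 0.0286. Genes were named through RefSeq accessions of the GRCm38 annotation. Full statistics were given for the 5 genes of the list with the largest change among those called, for Myc, and for the 3 largest of the other list, and intervals for Polr1a, Rrn3 and Ubtf. The 38 genes, the other lists and the roles were chosen with earlier results of these data known, so no list was tested. Alternatives were the vsn model refitted on the spike-in spots, 75th percentile scaling, the spike-in shift with no constant, quantile normalization, the deposited values, normexp with an offset of 50, no detection filter, detection on all 8 arrays, the mean of a gene's probes, significance analysis of microarrays, blocks for replicate number and array row, and each mouse left out. Leaving out a mouse after 75th percentile scaling, and leaving out both replicate 2 mice, were chosen after seeing the data.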

Additional observations from a re-analysis of the deposited data

Results flagged for a closer look

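Of 90 groups of 4 mice tested over the 38 genes and the other named ones, 6 held a mouse set apart from the other 3 by more than Dixon's 95% critical value, where chance flags about 1 in 20 groups. All 6 were low values of a replicate 2 mouse, on the arrays with the low median over all genes. In MI replicate 2, Npm1 was at 14.32 (14.70 to 14.76 in the other MI mice), Wdr12 at 7.59 (8.40 to 8.56) and Polr1a at 10.42 (10.95 to 10.99). In sham replicate 2, Wdr75 was at 9.998 (10.42 to 10.47 in the other sham mice), Nop16 at 9.50 (9.84 to 9.88) and Eif6 at 11.74 (12.27 to 12.37).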

How the results depend on the processing

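The 38 genes gave 0 lower calls under every alternative run, and their median log2 fold change stayed between 0.57 and 0.84 with a mouse left out, between 0.55 and 0.63 with a mouse left out after 75th percentile scaling, and between 0.58 and 0.71 under the 12 other alternatives. Against 20 higher calls, there were 13 with the spike-in shift that has no constant, 7 with no filter on detection, and 18 to 29 under the other 10, with 18 for the deposited values. The range with a mouse left out was 10 to 26, and 19 to 27 after 75th percentile scaling. Against 8 genes over 2-fold, there were 3 with the vsn refit, 4 after 75th percentile scaling and with normexp, 5 with quantile normalization, 4 to 10 with a mouse left out and 3 to 7 with a mouse left out after 75th percentile scaling. Against 14 other ribosome biogenesis genes called higher, there were 7 with the vsn refit, 6 with the shift, 24 with quantile normalization, 26 with normexp, 1 with no filter and 5 to 21 with a mouse left out; 2 were lower, against 0, under 75th percentile scaling, quantile normalization and normexp. Apart from 75th percentile scaling with all mice, the share of all genes called under these alternatives is not given here. The cause of these differences was not tested.

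The sample titles number the mice of each group and do not say what the replicate numbers stand for. Correlations of the deviations of same-numbered mice were 0.26, 0.23, 0.04 and 0.01, not all above 0.1, so they were not taken as pairs, and not every mouse correlated best with its own number. With the replicate number as a block, 29 of the 38 genes were called higher and 30 of the other list. With the array row as a block 18 of the 38 were called. The share of all genes called with either block is not given here.

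The log2 fold change of Ubtf, 0.04, turned to -0.088 after 75th percentile scaling, -0.023 with quantile normalization, -0.026 with normexp and -0.090 with the mean of its probes. With a mouse left out it ranged from -0.061 to 0.22, and it was negative without MI replicate 1 or 3 or sham replicate 2 or 4. The log2 fold change of Polr1a, -0.04, ranged from -0.18 to 0.099 with a mouse left out, and it was positive without MI replicate 2 or sham replicate 1 or 3. Neither gene was called in these.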
